A study of Mus musculus with 6 samples.

Results

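The genes described here are 10 genes of the p53 pathway: Trp53, Mdm2, Mdm4, Cdkn1a, Ccng1, Gadd45a, Sesn2, Trp53inp1, Zmat3 and Phlda3. They were chosen as named members of the pathway, with earlier results of these data known, and each of the 10 was found once among the 24421 gene entries of the count table. Bulk RNA sequencing of mouse induced pluripotent stem cells (iPSCs), made by reprogramming and similar to embryonic stem cells, gave 6 libraries. Per the labels, 3 libraries came from SRF KO cells (SRFΔ/Δ, with both copies of the serum response factor gene deleted, called KO from here on) and 3 from WT cells (SRFf/f, with both copies carrying the conditional allele that can still be deleted). Both kinds of cell were grown in serum-containing medium. The labels give no treatment, time point, clone number or sex, do not name the recombinase, and do not say whether replicates are separate cultures, so that p-values measure the spread between these libraries, which may be technical.

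Trp53 encodes p53, a transcription factor that is kept low in unstressed cells because MDM2 tags it for degradation and MDM2 and MDM4 block its activity. DNA damage, nucleolar stress and other signals free p53, which then raises its targets: Cdkn1a, whose product p21 inhibits cyclin-dependent kinases, and Mdm2, which closes a negative feedback loop. Mouse pluripotent cells are known to hold much p53, and p53 is known as a barrier to reprogramming. The design text sets KO beside WT iPSCs and does not name p53. Serum response factor (SRF) is a transcription factor of cytoskeletal and immediate-early genes.

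p53 binds a response element made of a pair of half-sites of 10 letters each, in which a C at the fourth and a G at the seventh position have A or T between them, purines before and pyrimidines after. Promoter windows from RefSeq (GRCm38.p6), 300 bases long from 250 before to 50 after a start site, were searched for this element, with a spacer of 0 or 1 base and with C and G kept in both half-sites. The element reads the same on both strands. Windows were found for 8 of the 10 genes, 10 windows in all. The Ccng1 window and 1 of the 2 Cdkn1a windows held an element with 1 departure from the consensus, and the best match in the other Cdkn1a window had 7 departures. In the whole collection 36 of 32851 windows (0.110%) held one with at most 1 departure, and 928 (2.82%) held one with at most 3. The best matches of the other genes that rose in KO had 5 (Phlda3), 8 (Sesn2), 9 (Mdm2) and 12 (Gadd45a) departures. Cdkn1a and Ccng1 were chosen for display because they rose in KO and held an element with 1 departure. The stretch from 250 to 31 bases before the start is shown for them, with the matched element in capitals. It covers chr17:29090729-29090948 on the plus strand for Cdkn1a and chr11:40755317-40755536 on the minus strand for Ccng1 (GRCm38).
Cdkn1a: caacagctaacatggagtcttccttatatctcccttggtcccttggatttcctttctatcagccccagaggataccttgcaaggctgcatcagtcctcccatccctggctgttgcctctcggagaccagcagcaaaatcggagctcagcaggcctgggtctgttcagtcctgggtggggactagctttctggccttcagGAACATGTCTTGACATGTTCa
Ccng1: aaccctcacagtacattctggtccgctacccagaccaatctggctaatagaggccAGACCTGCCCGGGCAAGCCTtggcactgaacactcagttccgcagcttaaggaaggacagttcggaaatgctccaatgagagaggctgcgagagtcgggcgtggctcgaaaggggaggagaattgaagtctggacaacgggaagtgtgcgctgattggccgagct

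The element of Cdkn1a began 51 bases before the upstream one of its start sites (chr17:29090979). The other start site lies downstream, at chr17:29093769. In Ccng1 the element began 195 bases before the start site. The element in the Trp53 promoter had 3 departures and began 75 bases before its start. For comparison, elements of genes on the wider pathway list are shown with them: those of Gtse1 and Rps27l with 1 departure and that of Bax with 2 departures and a spacer of 1 base. These 3 were picked for their elements after their values were seen. Trp73 and Birc5 of the same list, also named after their values were seen, held elements with 2 departures that are not shown. Their log2 fold changes, KO over WT, were 0.15 and -0.06, both short of the threshold. Of the 96 windows of the wider list, 2 held an element with at most 1 departure and 12 held one with at most 3. The best match in the other window of Gtse1 had 6 departures, and in that of Rps27l 5. Capitals here mark the C and G kept in each half-site.
Cdkn1a: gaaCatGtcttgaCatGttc
Ccng1: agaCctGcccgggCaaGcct
Trp53: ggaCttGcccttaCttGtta
Gtse1: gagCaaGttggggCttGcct
Rps27l: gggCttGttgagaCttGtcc
Bax: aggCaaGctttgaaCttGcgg

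A match is a description of the letters and not evidence of binding. The log2 fold changes of these 6 genes, KO over WT, were 0.43 for Cdkn1a, 0.43 for Ccng1, 0.01 for Trp53, 0.19 for Gtse1, -0.02 for Rps27l and 0.06 for Bax. Of the genes shown with 1 departure, Cdkn1a, Ccng1 and Gtse1 rose and Rps27l was short of the threshold (adjusted p 0.806, edgeR). Among all genes tested, 21.2% were higher. Cdkn1a and Ccng1 were shown because they rose and held an element with 1 departure. Gtse1 and Rps27l were picked with their values known, so that no share is read from these genes. Whether the element bears on the changes was not tested. The CArG box is the motif bound by SRF (CC, then 6 letters A or T, then GG). It was found in 1.63% of all windows and in none of the 10 windows of the 10 p53 pathway genes. At so low a share, none in 10 windows says little, and Trp53inp1 and Zmat3 had no window.

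Total counts were between 26321602 and 36680156 per library, and each of the 10 genes had at least 672 counts in every library, so that counting error alone was at most 3.86% of a value. Levels are CPM, counts relative to the library total, after scaling by TMM (trimmed mean of M values), and log2 fold changes are KO over WT with their standard error (SE). A gene is said to have risen or fallen where the adjusted p was under 0.05 in the quasi-likelihood test of edgeR, adjusted after Benjamini-Hochberg over all entries tested. Adjusted p-values of single genes come from this test unless DESeq2 is named. Srf itself had 84 to 131 counts per KO library and 765 to 1326 per WT library, a log2 fold change of -3.12 (its SE 0.13). KO held 11.5% of the WT level, and the counts do not say which exons the remaining reads came from.

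Markers of other cell states moved between the groups. The 10 pluripotent cell markers, Pou5f1, Sox2 and Nanog among them, had a summed level of 5093 to 5223 CPM in KO and 6035 to 6486 CPM in WT. Of these markers 1 was higher and 5 were lower past the threshold. Nanog was among the lower ones, with a log2 fold change of -0.79. Pou5f1 and Sox2 were short of the threshold, at -0.08 and -0.19 (edgeR adjusted p 0.258 and 0.0506). All 12 markers of primitive and visceral endoderm rose, from a summed 199 to 217 CPM in WT to 2322 to 2478 CPM in KO, and all 12 fibroblast markers rose, from 585 to 660 CPM to 1201 to 1453 CPM. No marker of these lists was at 0 in any library. In bulk RNA, more cells of a type and more RNA per cell cannot be told apart, and the part of such cells in the results below was not tested.

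Of the 10 genes, 6 rose in KO (Mdm2, Cdkn1a, Ccng1, Sesn2, Phlda3 and Gadd45a), 1 fell (Mdm4) and 3 did not pass the threshold (Trp53, Trp53inp1 and Zmat3). Among all 14778 genes tested, 21.2% were higher and 21.3% lower, 42.4% together. The median log2 fold change of the 10 genes was 0.25, beside -0.01 over all genes tested. All changes were moderate: none of the 10 reached an absolute log2 fold change of 1, which 7.29% of all genes did past the threshold. With library totals in place of TMM, 6 rose and 0 fell.

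**Figure D1:**
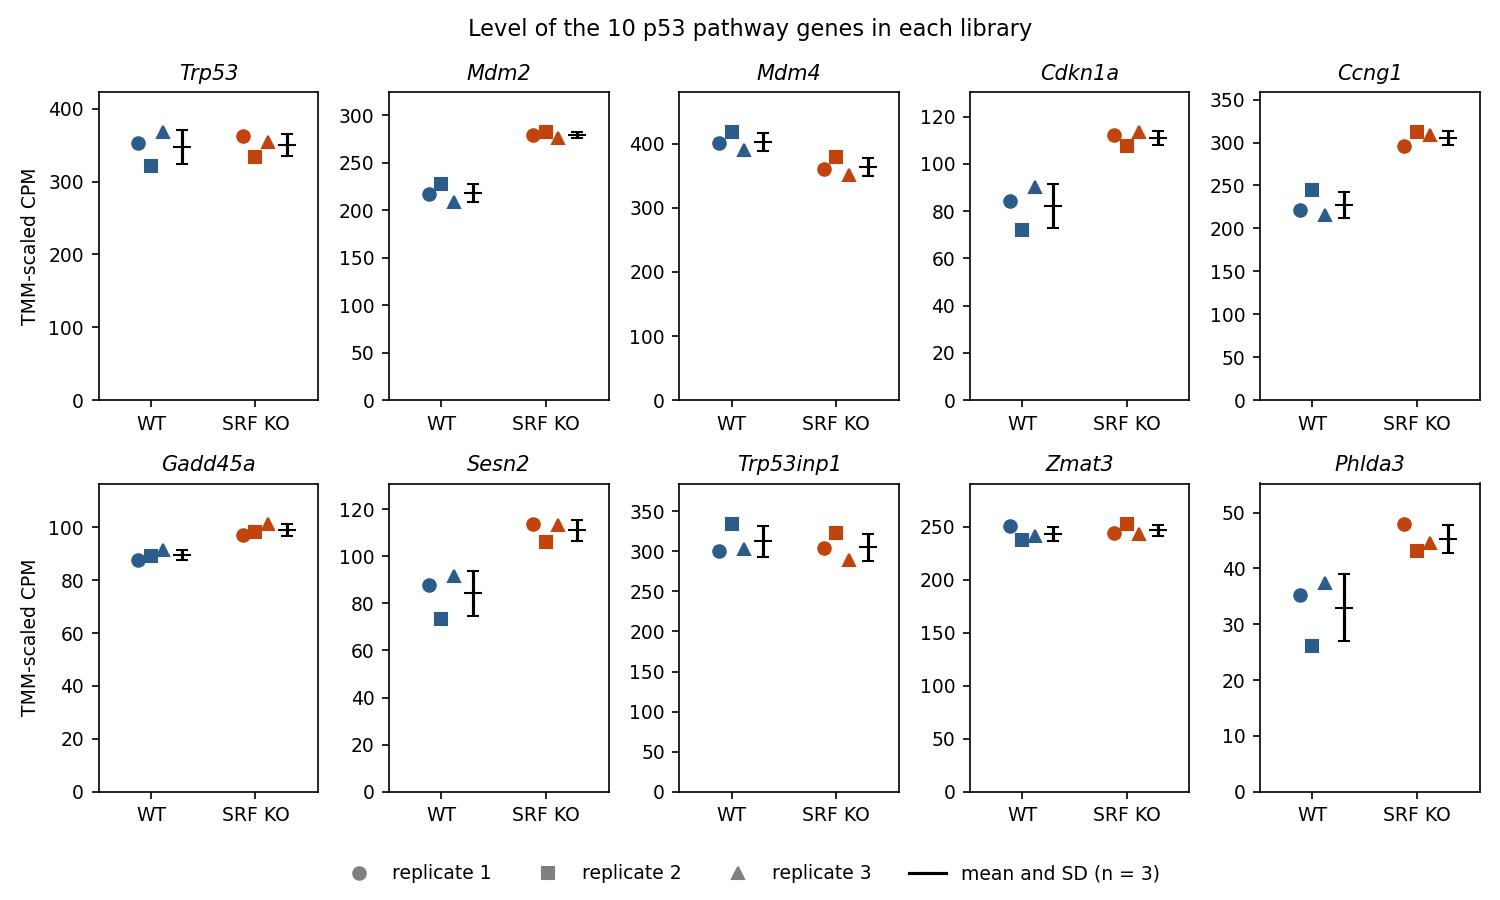
TMM-scaled CPM (vertical axis, starting at 0, scaled for each gene) of the 10 p53 pathway genes in the 3 WT and 3 KO libraries, with 1 symbol per replicate and the mean and SD (n = 3) beside them. For Mdm2, Cdkn1a, Ccng1, Sesn2, Phlda3 and Gadd45a every KO library lies above every WT library, for Mdm4 every KO library lies below, and for Trp53, Trp53inp1 and Zmat3 the groups overlap.

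Trp53, at chr11:69580359-69591873 on the plus strand (GRCm38, GENCODE M21, as for the positions that follow), did not differ beyond the spread between libraries. Its level was 362, 333 and 354 CPM in KO replicates 1 to 3 and 354, 322 and 368 CPM in WT replicates 1 to 3. The WT libraries spanned the whole range of the KO libraries. The log2 fold change was 0.01 (SE 0.06, edgeR adjusted p 0.913). Transcript level does not measure p53 protein, which is controlled largely by degradation.

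The p53 antagonists moved in opposite directions. Mdm2, a ubiquitin ligase of p53 that is itself a p53 target (chr10:117688875-117710758, minus strand), was at 279.6, 282 and 276 CPM in KO and 217, 228 and 209 CPM in WT. Each KO library was above each WT library. Its log2 fold change was 0.36 (SE 0.05, edgeR adjusted p 0.000140), 1.28 times the WT mean. Mdm4, a relative of Mdm2 that blocks the activation domain of p53 (chr1:132959484-133030561, minus strand), was at 361, 379 and 351 CPM in KO and 401, 418 and 391 CPM in WT. All 3 KO libraries were below all WT libraries, by a log2 fold change of -0.15 (its SE 0.05, edgeR adjusted p 0.0338). This small fall lost its call without KO replicate 1 (edgeR adjusted p 0.128), without KO replicate 3 (0.154), without WT replicate 1 (0.0841) and with library totals (-0.11, edgeR adjusted p 0.0720).

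The ratio of Mdm2 to Mdm4 within a library does not depend on how libraries are scaled. It was 0.775, 0.745 and 0.786 in KO and 0.541, 0.545 and 0.535 in WT. The means were 0.768 ± 0.0213 and 0.540 ± 0.00498 (SD, n = 3), so that Mdm2 relative to Mdm4 was 1.42 times as high in KO. That the groups did not overlap follows from the separate ranges of Mdm2 and Mdm4 given above. The exact two-sided permutation test had to give its smallest p for 3 libraries against 3, p = 0.1, and so adds no support of its own.

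Cdkn1a and Ccng1, whose products act on the cell cycle, both rose. Cdkn1a (chr17:29090976-29100727, plus strand), which encodes p21, was at 112, 108 and 113 CPM in KO and 84.4, 72.2 and 90.3 CPM in WT. The lowest KO library was above the highest WT library, and WT replicate 2 was the lowest of all. Its log2 fold change was 0.43 (SE 0.07, edgeR adjusted p 0.000602). Ccng1 (chr11:40748552-40755311, minus strand), which encodes cyclin G1, a p53 target that recruits a phosphatase to MDM2, was at 297, 312 and 309 CPM in KO and 222, 244 and 215 CPM in WT. Here too the groups did not overlap, but WT replicate 2 was the highest of the WT libraries. Ccng1 had the smallest adjusted p of the 10 genes, 9.87e-05 by edgeR, with a log2 fold change of 0.43 (its SE 0.06).

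Gadd45a (chr6:67035096-67037457, minus strand), a small stress protein that binds PCNA and p21, was at 97.2, 98.2 and 101 CPM in KO and 87.6, 89.3 and 91.5 CPM in WT. The groups were narrow and did not overlap, with a log2 fold change of 0.15 (its SE 0.05, edgeR adjusted p 0.0285). The call was lost without KO replicate 1 (edgeR adjusted p 0.0743), 2 (0.0534) or 3 (0.124), or without WT replicate 1 (0.122). An antisense transcript, E230016M11Rik, covers 19.1% of the merged exons of Gadd45a. It was counted at 0.368 CPM in KO and 0.399 CPM in WT, and since the strand setting of the counting is unknown, its reads cannot be told from those of Gadd45a there. In Cdkn1a 7.68% of the merged exons are covered by an unnamed antisense model.

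Among targets in metabolism, survival and growth signalling, Sesn2 and Phlda3 rose. Sesn2 (chr4:132492032-132510501, minus strand), a leucine-binding stress protein that restrains mTORC1, was at 114, 106 and 113 CPM in KO and 87.8, 73.2 and 91.6 CPM in WT. The log2 fold change was 0.40 (SE 0.08, edgeR adjusted p 0.00134), and no WT library reached the lowest KO library. Phlda3 (chr1:135766119-135769136, plus strand), a pleckstrin-homology protein that keeps AKT off the membrane, was at 48.0, 43.1 and 44.6 CPM in KO and 35.3, 26.1 and 37.4 CPM in WT. It had the largest log2 fold change of the 10 genes in this fit, 0.45, and also the largest SE, 0.11 (edgeR adjusted p 0.00569). Without WT replicate 2 its log2 fold change was 0.32.

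The other 2 targets did not pass the threshold. Trp53inp1 (chr4:11156431-11174379, plus strand), a cofactor of p53 in stress and autophagy, was at 304, 322 and 289 CPM in KO and 301, 335 and 303 CPM in WT, a log2 fold change of -0.04 (its SE 0.06, edgeR adjusted p 0.669). Zmat3 (chr3:32334792-32366014, minus strand), an RNA-binding zinc finger protein that regulates splicing, was at 244, 253 and 243 CPM in KO and 250.1, 237 and 241 CPM in WT. Its log2 fold change was 0.02 (SE 0.05, edgeR adjusted p 0.769). The groups overlapped for both genes.

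**Figure D2:**
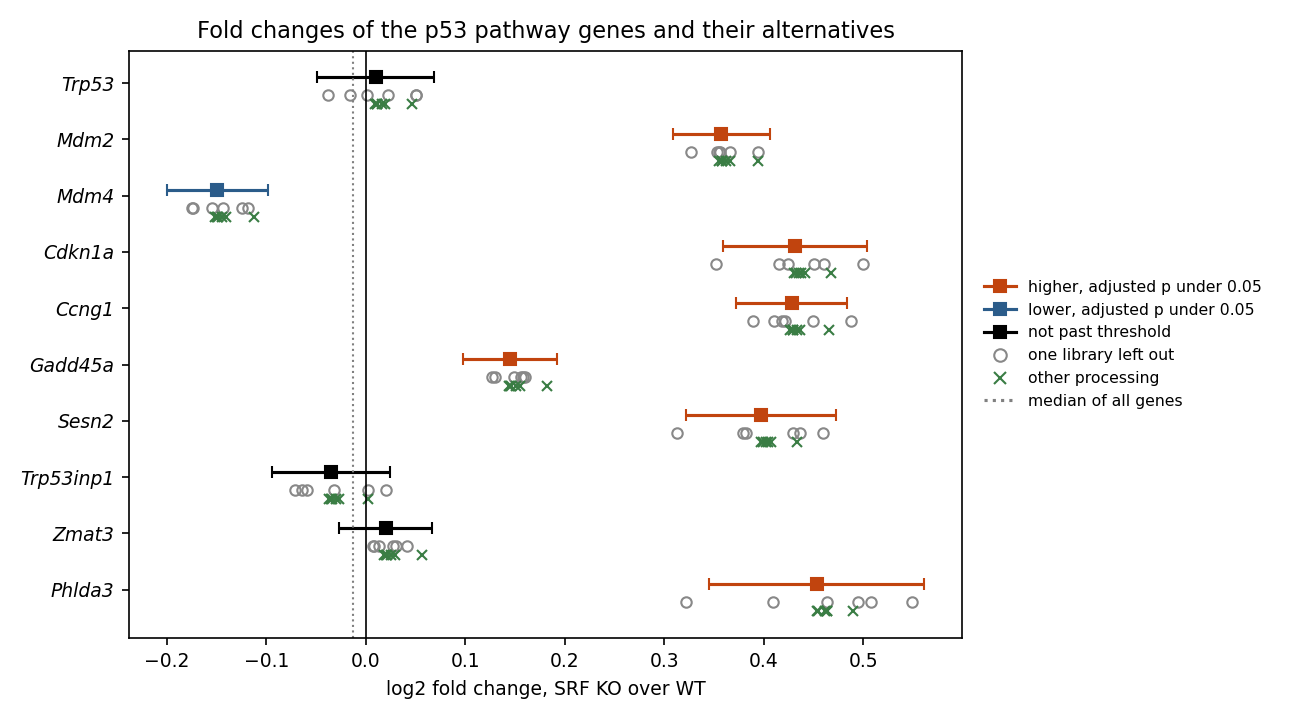
Log2 fold change, KO over WT (horizontal axis), of the 10 genes, with bars of 1 SE, beside the values when 1 library is left out (circles) and under the other processing alternatives (crosses). Mdm2, Cdkn1a, Ccng1, Sesn2 and Phlda3 lie between 0.36 and 0.45 and stay above 0.31 in every alternative shown, Gadd45a and Mdm4 lie nearer to 0, and Trp53, Trp53inp1 and Zmat3 lie close to 0.

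For Mdm2, Cdkn1a, Ccng1, Sesn2 and Phlda3 the direction and the call held in all 12 alternatives in which the gene was fitted again. The highest adjusted p over these was 0.00173 for Mdm2, 0.00541 for Cdkn1a, 0.00137 for Ccng1, 0.01003 for Sesn2 and 0.0288 for Phlda3. Groups did not overlap for the same 7 of the 10 genes that passed the threshold, against 52.7% of all genes tested. KO was above WT in 6 of them (26.2% of all genes) and below it in 1 (26.5%).

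Among the WT libraries, replicate 2 lay farthest from the group mean, by a median absolute deviation over the 10 genes of 0.10 on the log2 scale, beside 0.04 for replicate 1 and 0.07 for replicate 3. It was the lowest WT library for Trp53, Cdkn1a, Sesn2, Zmat3 and Phlda3, 5 of the 10 genes, and the highest for Mdm2, Mdm4, Ccng1 and Trp53inp1, 4 of the 10. WT replicate 3 was the lowest for 3 of the 10 genes and the highest for 5. The coefficient of variation among WT libraries was 18.2% for Phlda3, 11.6% for Sesn2 and 11.2% for Cdkn1a. Among KO libraries the same genes had 5.60%, 4.01% and 2.78%. Without WT replicate 2 the log2 fold changes were 0.32 for Phlda3, 0.31 for Sesn2, 0.35 for Cdkn1a, 0.39 for Mdm2 and 0.49 for Ccng1, all past the threshold. In Gadd45a both groups varied by little, 2.19% in WT and 2.23% in KO, close to the counting error of 2.09% at its lowest count. In KO, replicate 2 was also the lowest or highest library for 9 of the 10 genes, 4 times the lowest and 5 times the highest. In a principal component analysis of all well-counted entries the first component separated the groups (83.7% of the variance), and on the second (8.94%) the WT replicates 1, 2 and 3 were at 5.97, -16.1 and 11.1.

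**Figure D3:**
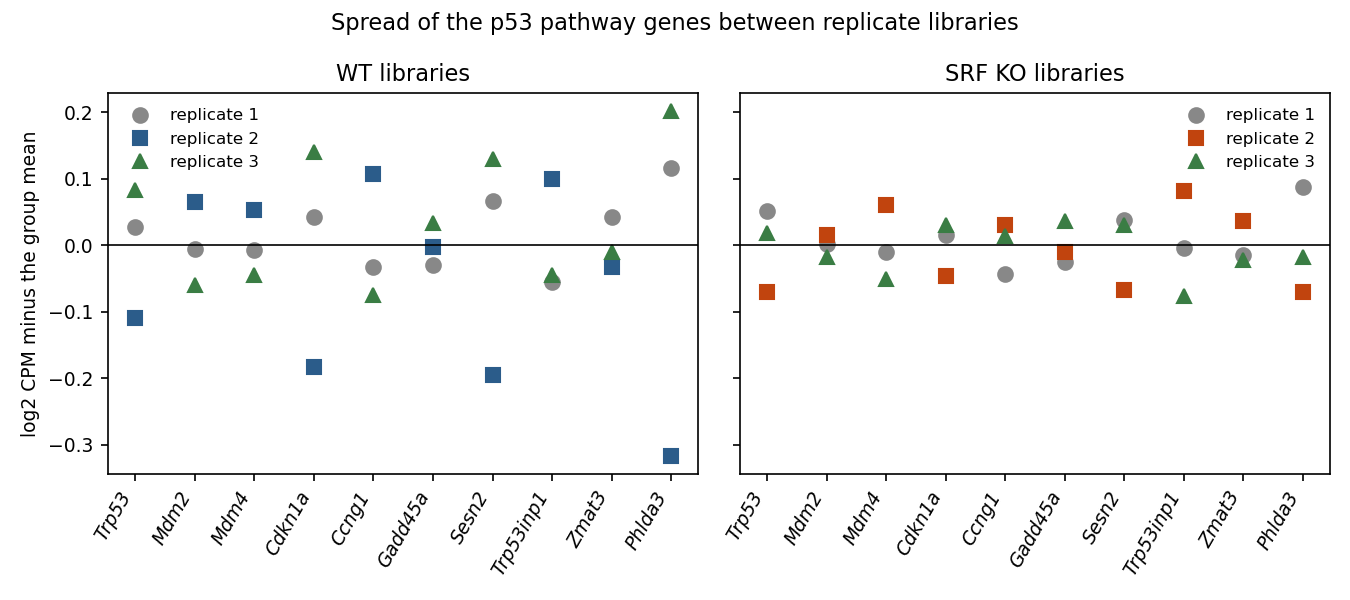
Log2 CPM of each library minus the mean of its group (vertical axis) for the 10 genes, with WT libraries on the left and KO libraries on the right. WT replicate 2 (squares, left) is the lowest WT library for Cdkn1a, Sesn2 and Phlda3 and the highest for Mdm2, Mdm4, Ccng1 and Trp53inp1.

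Levels of different genes were compared per kilobase of merged exons, a length that counts every annotated transcript and so understates genes with long alternative exons such as Mdm4. In WT, Trp53 was the most abundant at 85.9 ± 5.84 CPM per kb, followed by Ccng1 at 64.7 ± 4.34 (SD, n = 3), and these did not overlap. Gadd45a and Trp53inp1 came next at 50.7 ± 1.11 and 48.3 ± 2.94 CPM per kb and overlapped, followed by Mdm2 at 42.9 ± 1.86 and Mdm4 at 27.2 ± 0.939. Sesn2, Cdkn1a, Zmat3 and Phlda3 had mean levels between 21.1 and 24.2 CPM per kb, and each overlapped its neighbour in this order. In KO, Ccng1 was level with Trp53, at 87.1 ± 2.33 and 86.5 ± 3.71 CPM per kb, and Mdm2 with Gadd45a, at 54.9 ± 0.634 and 56.1 ± 1.25 (SD, n = 3). Mdm4, at 24.6 ± 0.960 CPM per kb, was below Sesn2, Cdkn1a and Phlda3 there, while it was above them in WT.

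The closest relatives of these genes gave a mixed picture, with 3 higher, 3 lower and 3 not past the threshold among 9, beside 21.2% higher and 21.3% lower among all genes tested. Phlda1, a paralogue of Phlda3, rose from 12.5 ± 1.20 to 32.8 ± 1.33 CPM (SD, n = 3), or by a log2 fold change of 1.39 (its SE 0.08, edgeR adjusted p 1.53e-07). Ccng2, which encodes cyclin G2, fell from 32.8 ± 1.71 to 16.8 ± 0.581 CPM (SD, n = 3), or by a log2 fold change of -0.97, opposite to Ccng1. Sesn3 fell by 0.43 and Gadd45b by 0.43 on the log2 scale. Gadd45g and Cdkn1c had log2 fold changes of 0.40 and 0.27, past the threshold, while Phlda2, Trp53inp2 and Cdkn1b were at -0.14, 0.09 and 0.01. The call of Gadd45g was lost without any 1 of KO replicates 1 to 3 (edgeR adjusted p 0.109, 0.0524 and 0.151), WT replicate 1 (0.106) or WT replicate 2 (0.0668), and that of Cdkn1c without KO replicate 1 (0.0853) or 2 (0.0608). Without WT replicate 2, Phlda2 passed the threshold at -0.23 (edgeR adjusted p 0.00795).

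To set the 10 genes among the rest of the pathway, 87 other genes were listed by role, of which 86 were tested and Trp63 was not, for too few counts. Of these, 20 were higher and 20 lower, 46.5% together against 42.4% of all genes tested, and the median log2 fold change was -0.01, the same to this precision as that of all genes. The call count of the wider list was thus near the background. With library totals in place of TMM 22 were higher and 13 lower, and 13 were lower without KO replicate 3.

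The wider list is described by role, and its counts stand beside 21.2% higher and 21.3% lower among all genes tested. Of 14 targets in cell death and survival, 7 rose, 0 fell and 7 did not pass the threshold, with a median of 0.19. The largest rise was that of Dram1, a lysosomal membrane protein of p53-dependent autophagy, from 1.53 ± 0.0892 to 15.9 ± 0.939 CPM (SD, n = 3), or by a log2 fold change of 3.38 (its SE 0.11, edgeR adjusted p 8.84e-10). Perp, a desmosomal membrane protein, rose by 0.91 (SE 0.06) and Pmaip1, which encodes the BH3-only protein NOXA, by 0.41 (SE 0.06) on the log2 scale. The apoptosis genes Bax and Bbc3, named after their values were seen, were at 0.06 (edgeR adjusted p 0.576) and 0.01 (0.942), short of the threshold.

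Of 7 arrest targets, 3 rose, 1 fell and 3 did not pass the threshold, with a median of 0.19. The one that fell, Sfn, encodes 14-3-3 sigma and was named after its values were seen. It fell by 0.24 on the log2 scale (edgeR adjusted p 0.0181), a call that was lost without KO replicate 2 (0.0705) or 3 (0.0504), without WT replicate 1 (0.0515) or 3 (0.0595), and with library totals (0.0507). Plk2, a kinase of the centriole cycle, rose from 58.8 ± 4.01 to 102 ± 1.45 CPM (SD, n = 3), or by a log2 fold change of 0.79. Btg2, an antiproliferative mRNA deadenylation cofactor, and Gtse1, a microtubule-binding protein that restrains p53, rose by 0.23 and 0.19. The call of Gtse1 was lost without KO replicate 1 (edgeR adjusted p 0.0510). Of 12 cell cycle genes that fall when p53 acts through p21, 5 were lower and 0 higher, with a median of -0.08. The share lower was 41.7%, beside 21.3% lower among all genes tested. The share called in either direction was also 41.7%, near the 42.4% of all genes tested. The list was not tested as a set. Among them the mitotic checkpoint kinase Bub1 fell by 0.39, Mybl2 by 0.33 and Ccnb2 by 0.32 on the log2 scale. Genes of the same list such as Ccnb1 and Cdk1, named after their values were seen, were at -0.01 and -0.04, short of the threshold.

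Of 6 DNA repair targets, 0 were higher, 3 were lower and 3 did not pass the threshold, with a median of -0.33. Xpc, the damage sensor of nucleotide excision repair, fell from 35.1 ± 1.97 to 24.98 ± 0.473 CPM (SD, n = 3), or by a log2 fold change of -0.49 (its SE 0.06, edgeR adjusted p 0.000105). Ddb2, which recognises ultraviolet lesions, fell by 0.46, and Rrm2b, the p53-inducible subunit of ribonucleotide reductase, fell by 0.57. These 3 genes, listed here as p53 targets, moved in the opposite direction to Cdkn1a and Mdm2. Whether each is a p53 target in mouse cells, and the activity of p53, were not tested.

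Metabolic and stress targets were divided, with 5 higher, 3 lower and a median of 0.11 over 11 genes. Prkab1, a subunit of AMP-activated kinase, and the adenylate kinase Ak1 rose by 0.43 and 0.35, and the mitochondrial glutaminase Gls2 fell by 0.42 on the log2 scale. Among 10 other targets 1 rose, Dglucy by 0.78, and 1 fell, Abhd4 by 0.18. The call of Abhd4 was lost without any 1 library other than WT replicate 2, with edgeR adjusted p between 0.0722 and 0.127, with library totals (0.104) and under DESeq2 (0.0605).

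Upstream of p53, 3 of 17 activators and cofactors rose and 6 fell, with a median of -0.05. Ppp1r13b, which encodes the p53 partner ASPP1, fell by 0.45 and the checkpoint kinase Chek2 by 0.29, while the acetyltransferase Crebbp rose by 0.28. Of 8 negative regulators 1 rose and 1 fell, with a median of -0.10. The one that rose was Ppm1d, from 30.1 ± 1.12 to 38.5 ± 0.897 CPM (SD, n = 3), or by a log2 fold change of 0.36 (its SE 0.06, edgeR adjusted p 0.000557). It encodes WIP1, a phosphatase that is both a p53 target and a brake on p53. The methyltransferase Smyd2 fell by 0.26.

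**Figure D4:**
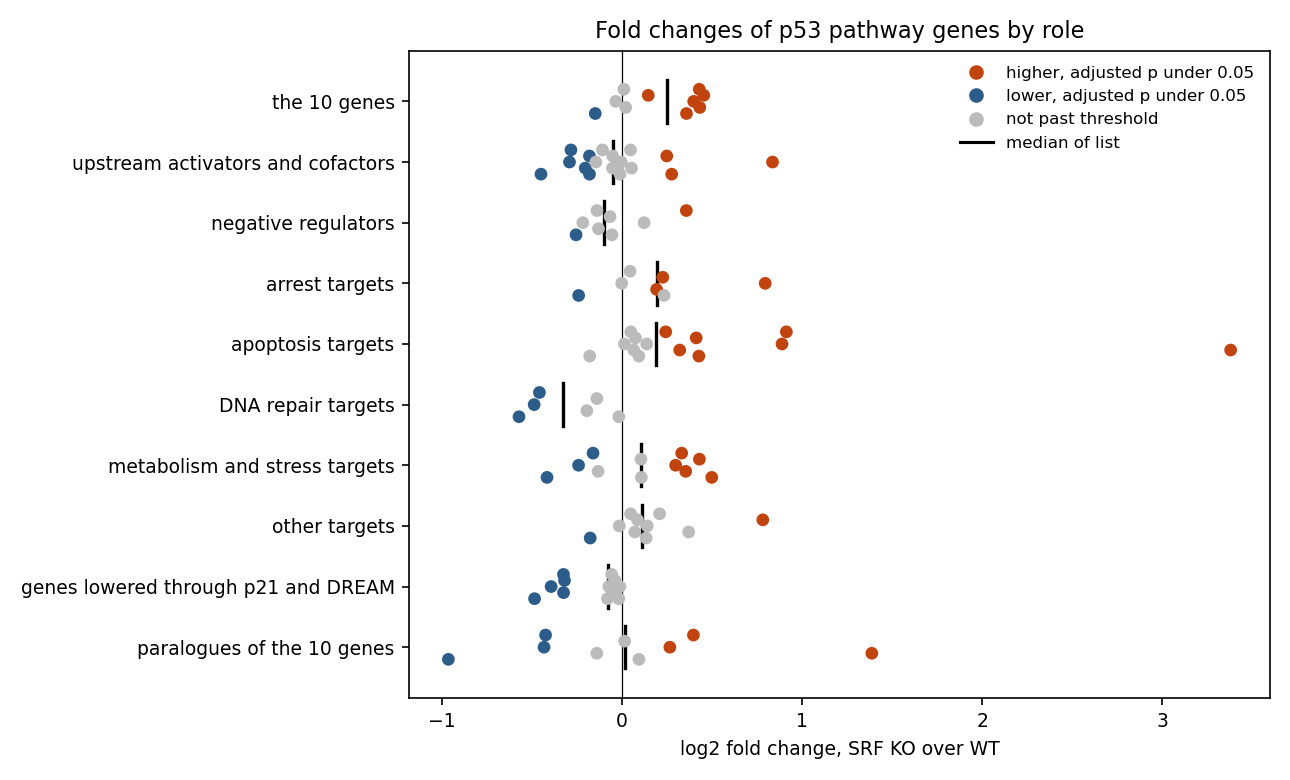
Log2 fold change, KO over WT (horizontal axis), of each tested gene, grouped by role (vertical axis, with points spread only for legibility), with the median of each group as a black bar. Medians lie at 0.25 for the 10 genes, 0.19 for both arrest and apoptosis targets and -0.33 for DNA repair targets, and the point at 3.38 is Dram1.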

How the data were processed

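The values deposited are raw read counts, whole numbers per gene and per transposable element subfamily for 6 libraries, not normalized by the authors as judged from the values. Per the labels' protocols, 150 bp paired reads were cleaned of adaptor, low-quality and empty reads. Build mm10 and DESeq2 are named, per the submitters' processing notes. The aligner, counter, annotation and strand setting are not given in the sources used here. Columns were matched to samples by name.

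Genes and subfamilies entered 1 fit in R 4.3.3: filterByExpr (minimum count 10), TMM scaling and edgeR 4.0.16's quasi-likelihood test, SRF KO against WT, with Benjamini-Hochberg adjustment and a threshold of 0.05. Alternatives were DESeq2 1.42.0, DESeq2 size factors (RLE), library totals, no filter, gene entries alone, each replicate left out, a replicate block and stricter thresholds. Replicate pairs differed beyond sampling noise (chi-square per degree of freedom 1.83 to 15.5). A count of 0 allows 3 counts, 0.0828 to 0.117 CPM, for counting error only. On simulated counts for 15611 entries of the SRF KO against WT comparison, edgeR recovered 94% and 96% of genes changed by -1 and 1, and 68% and 76% of those changed by -0.5 and 0.5 (log2), with 5.65% false calls. The simulation gave every entry the same spread beyond sampling noise, changed few entries and set no library apart. These rates need not hold for the data, where the 10 genes changed by less than 0.5.

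The genes and lists were chosen with earlier results of these data known. Named are Srf, the 10 genes, their paralogues, markers, and up to 3 genes per role list with the smallest p past the threshold. Others are marked in the text. Old symbols were used for 3 genes (Cop1, Kmt5a, Dglucy). GENCODE M21 (GRCm38, the same assembly as mm10) gave positions and exon lengths, and RefSeq promoter windows gave sequences.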

Additional observations from a re-analysis of the deposited data

How the results depend on the processing

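With library totals, 6 of the 10 genes were higher and 0 lower, their median was 0.29, Mdm4 was at -0.11, Trp53inp1 turned to 0.0017, Ccnb1 to 0.025 and Rps27l to 0.021, and the wider list had 13 lower and a median of 0.029. With DESeq2 size factors that median was 0.0013. At an adjusted p under 0.01, 0 of the 10 genes and 13 of the wider list were lower. With an absolute log2 change of 1 required as well, 0 of the 10 were higher and 0 lower, and 1 of the wider list was higher and 0 lower, which a stricter threshold gives by construction.

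With each replicate left out in turn, 5 to 6 of the 10 genes were higher and 0 to 1 lower, with a median of 0.23 to 0.26. Mdm4 was between -0.17 and -0.12, Gadd45a between 0.13 and 0.16, Trp53 between -0.038 and 0.050, Trp53inp1 between -0.071 and 0.020, Cdkn1b between -0.049 and 0.071, Bax between -0.036 and 0.15, and Bbc3 between -0.11 and 0.13. The wider list had 16 to 22 higher, 13 to 24 lower and a median of -0.017 to 0.0092. The cause was not tested.

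Replicate numbers were not taken as pairs: deviations of same-numbered libraries correlated at 0.0435, 0.358 and 0.218. With a replicate block, 6 of the 10 genes were higher and 1 lower with a median of 0.25, 23 of the wider list were higher and 26 lower, and no call among the 10 changed. SRF KO replicate 1 correlated best with WT replicate 3 (0.258), the other SRF KO replicates with their own number. Srf, Mdm2, Cdkn1a, Ccng1, Sesn2 and Phlda3 kept direction and call in all 12 alternatives in which they were fitted again.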
